A study of Mus musculus with 6 samples.

Results

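The expression of 10 immediate early genes was followed across 6 brainstem libraries, of which 3 carried the label *Hoxa5* control and 3 the label *Hoxa5* cKO. The genes were *Fos*, *Fosb*, *Junb*, *Egr1*, *Egr2*, *Egr3*, *Arc*, *Npas4*, *Nr4a1* and *Ier2*, found by gene name in the deposited assembly. They were chosen as genes known to be induced by neuronal activity. Each lies on a locus that carries no other gene name, and all 10, of 34632 loci in all, were among the 21854 loci that passed the filter on low counts. None of the 10 was called different between the genotypes by the test across all loci. Among single libraries most of them were high or low together. Control replicate 2 and cKO replicate 1 held the 2 lowest levels of 8 of the 10, against 7.79% of all tested loci. In FPKM, a scale explained below, it was 6 of the 10. Control replicate 3 and cKO replicate 2 each stood above the mean in 9 of the 10, though not the same 9. These libraries were noticed in the same values, so that the counts are a description.

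All 6 libraries came from mice homozygous for a floxed *Hoxa5* allele (*Hoxa5* flox/flox) that had received tamoxifen from postnatal day 1 to 4, and RNA was taken from the brainstem at day 21. cKO animals carried in addition 1 copy of CMV-CreERT2 (+/-), a recombinase that tamoxifen activates and that the CMV promoter drives in many tissues rather than in 1 cell type. Control animals lacked this transgene (-/-). The paper states that pups were killed with carbon dioxide let gradually into the cage. Whether this changed the levels of early genes was not tested. Each library was made from a pool of 3 brainstems, and there were 3 libraries per genotype, so that p-values measure the spread between pools.

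Immediate early genes are transcribed within minutes of a stimulus and without new protein synthesis. In neurons, calcium entry and growth factor signaling activate kinases that phosphorylate SRF partners of the ELK family and CREB, factors that already occupy the promoters of these genes. Their messages are short-lived, so that a level measured in tissue reflects the time shortly before it was collected. Many of the products are transcription factors that act on later genes, while *Arc* acts directly at the synapse.

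The libraries held 12034613 to 13202707 fragments each. The locus of *Hoxa5*, the targeted gene, also carries *Hoxa6* and *2700086A05Rik* in the assembly. It held 202, 337 and 77 fragments in control replicates 1 to 3 and 279, 57 and 63 in cKO replicates 1 to 3, so that control replicate 3 and cKO replicate 1 went against their labels at this locus (log2 fold change -0.62, edgeR adjusted p = 0.893). The genotypes are therefore those of the labels throughout, and values without these 2 libraries are given beside the comparison. The cKO replicate 1 library also held 3 fragments of 4 Y-linked genes, against 1069 to 1734 in the other 5. Markers of cerebellar cells differed between the genotypes: edgeR called 6 of 7 granule neuron markers and 6 of 6 Purkinje cell markers lower in cKO (adjusted p under 0.05, against 0.503% of all tested loci), while limma on log2(FPKM + 1) called 0 of either list and had all 7 and all 6 at an unadjusted p under 0.05. The markers had a mean log2 CPM of 5.62 to 6.37 in control and 4.52 to 4.73 in cKO for granule neurons, and of 4.03 to 4.75 and 2.90 to 3.19 for Purkinje cells. The 8 markers of brainstem neurons were at a mean log2 CPM of 6.24 to 6.49 in all libraries. All 8 had a log2 fold change above 0 (median 0.11), while 48.6% of all tested loci were below 0. By edgeR 0 of the 8 were called, and 1 was higher in cKO at an unadjusted p under 0.05 (all loci 2.91%). In bulk tissue, fewer cells of a type and less RNA per cell cannot be told apart.

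Levels between genes were compared in FPKM, fragments scaled by transcript length and library depth, so that genes of different length can be set side by side. *Fos* stood highest at 10.7 ± 1.77 FPKM (SD over the 6 libraries), followed by *Egr1* at 8.76 ± 2.06, *Junb* at 7.91 ± 1.15 and *Arc* at 7.11 ± 0.934. The ranges of each of these and its neighbour overlapped, for example 8.01 to 12.5 FPKM for *Fos* and 6.19 to 10.8 for *Egr1*. *Nr4a1* followed at 4.79 ± 0.821 FPKM and *Ier2* at 2.52 ± 0.542. The lowest library of *Arc* (5.83 FPKM) was above the highest of *Nr4a1* (5.58), and the lowest of *Ier2* (1.93) above the highest of *Npas4* (1.53). The remaining genes were *Npas4* at 1.11 ± 0.333 FPKM, *Egr3* at 0.987 ± 0.215, *Fosb* at 0.568 ± 0.119 and *Egr2* at 0.281 ± 0.123, and each of these overlapped its neighbour.

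**Figure D1:**
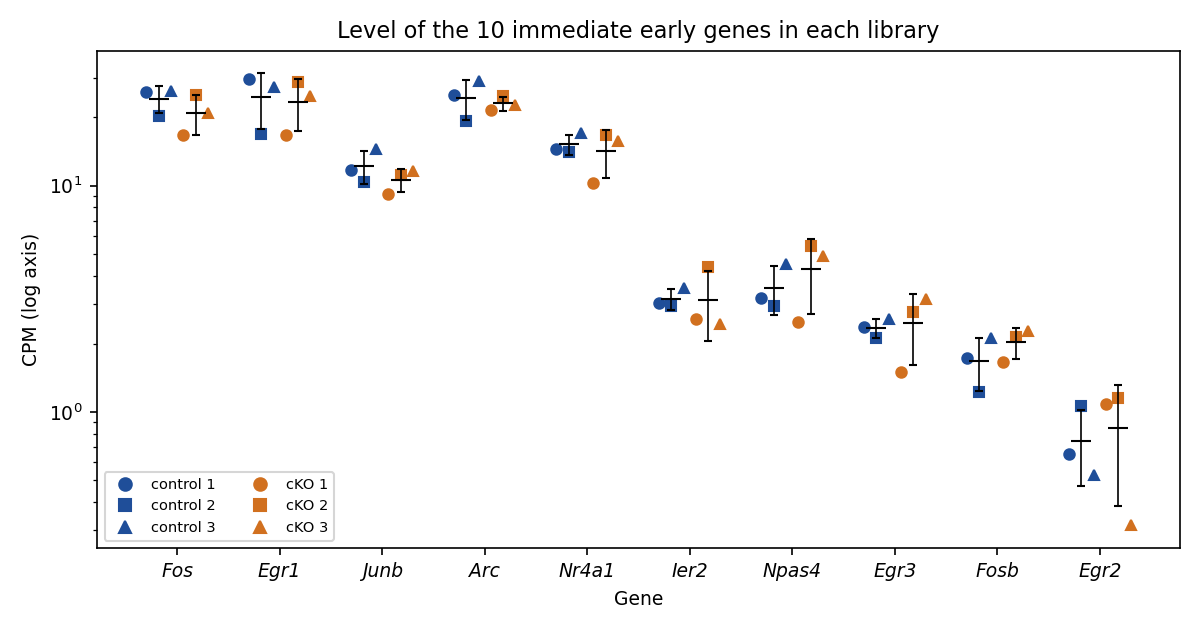
Level of each immediate early gene in CPM (log axis) in the 6 libraries, with genes ordered by mean FPKM. Colored points are libraries, and black marks give the mean and SD of the 3 libraries of each genotype. The points of control and cKO overlap for all 10 genes, and for most genes control replicate 2 and cKO replicate 1 lie lowest.

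The values by library are given below in CPM, counts scaled to a fixed library size after TMM normalization, in the order of control replicates 1 to 3 and then cKO replicates 1 to 3. *Fos*, *Fosb* and *Junb* encode subunits of AP-1, a dimer of a FOS and a JUN protein that binds DNA through leucine zippers. *Fos* (mm10 chr12:85473901-85477273, plus strand) was at 25.9, 20.4 and 26.3 CPM in control and 16.7, 25.1 and 20.9 in cKO. The lowest *Fos* level was that of cKO replicate 1, from 201 fragments, and cKO replicates 2 and 3 stood among the controls. *Junb* (chr8:84976909-84978748, minus strand) was at 11.7, 10.4 and 14.5 CPM and at 9.15, 11.1 and 11.6. *Fosb* (chr7:19302696-19310045, minus strand), whose spliced product accumulates with repeated stimulation, was at 1.72, 1.22 and 2.11 CPM and at 1.66, 2.14 and 2.28. It had 15 to 29 fragments per library, and its spread over the 6 libraries was 1.03 times that of counting error alone. For *Fos* and *Junb* this ratio was 2.83 and 1.87.

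The EGR genes encode zinc finger factors that bind GC-rich sites. *Egr1* (chr18:34861207-34864956, plus strand), which is widely used as a marker of activated neurons, was at 29.5, 16.9 and 27.3 CPM in control and 16.8, 28.6 and 25.0 in cKO. Each genotype thus held 1 low library, and the highest level was 1.75 times the lowest within control and 1.70 times within cKO. The spread of *Egr1* was the widest of the 10 relative to counting error, at 4.12 times. *Egr3* (chr14:70077445-70081763, plus strand) was at 2.37, 2.11 and 2.56 CPM and at 1.50, 2.75 and 3.15. *Egr2* (chr10:67537869-67542188, plus strand), also known for its role in hindbrain segmentation and in myelinating Schwann cells, had 4 to 15 fragments per library. Its levels of 0.653, 1.06 and 0.527 CPM in control and 1.08, 1.15 and 0.315 in cKO followed another order: the libraries that were low for *Egr1* were among the 3 highest for *Egr2*. The spread of *Egr2* was 1.38 times that of counting error, so that its order among libraries rests on few fragments.

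*Arc* (chr15:74668979-74672570, minus strand) encodes a protein of the postsynaptic density that promotes removal of AMPA receptors from the synapse. It was at 25.2, 19.2 and 28.9 CPM in control and 21.6, 24.9 and 22.7 in cKO. Unlike for most of the genes, its lowest library was control replicate 2. *Npas4* (chr19:4984355-4989971, minus strand) encodes a factor that calcium entry induces in neurons and that acts on inhibitory synapses. It was at 3.19, 2.92 and 4.52 CPM in control and 2.50, 5.43 and 4.88 in cKO, a 2.18-fold difference among the cKO libraries against 1.55-fold among the controls.

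*Nr4a1* (chr15:101254359-101274794, plus strand), an orphan nuclear receptor, was at 14.5, 14.1 and 17.0 CPM in control and 10.3, 16.7 and 15.7 in cKO. The cKO replicate 1 library stood apart below the other 5. *Ier2* (chr8:84661331-84662852, minus strand), a small nuclear protein induced by growth factors, was at 3.02, 2.92 and 3.54 CPM and at 2.58, 4.36 and 2.44. It was lowest in cKO replicate 3, which was not low for *Npas4* or *Nr4a1*. However, cKO replicates 1 and 3 both held 31 fragments of *Ier2*, and its spread was 1.43 times that of counting error.

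The comparison of the genotypes addressed whether the early genes differed in brainstem after postnatal recombination of *Hoxa5*. None of the 10 genes was called (edgeR quasi-likelihood test, Benjamini-Hochberg adjusted p under 0.05), while 0.531% of all tested loci were, 0.503% lower and 0.0275% higher in cKO. An unadjusted p under 0.05 was found for 4.03% of loci lower and 2.91% higher, and 48.6% of loci had a log2 fold change below 0. Adjusted p-values of the 10 genes ran from 0.836 to 0.995, and none had an unadjusted p under 0.05 (smallest 0.113, for *Fos*). DESeq2 (10 genes tested) and limma on log2(FPKM + 1) (8 tested) also called 0, and had none at an unadjusted p under 0.05. Fold changes were below 0 on the log2 scale for 6 genes and above 0 for 4, with a median of -0.04, against 0.0034 over all tested loci. The CPM of control and cKO overlapped for all 10, while 12.2% of tested loci had genotypes that did not overlap.

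*Fos* had a log2 fold change of -0.21 (95% interval -0.47 to 0.05), from 24.2 ± 3.30 CPM in control (SD, n = 3) to 20.9 ± 4.18 in cKO. The interval corresponds to 0.721 to 1.04 times the control level. *Junb* had a log2 fold change of -0.20 (-0.48 to 0.08), *Nr4a1* of -0.10 (-0.40 to 0.20), *Arc* of -0.09 (-0.33 to 0.16), *Egr1* of -0.06 (-0.43 to 0.31) and *Ier2* of -0.01 (-0.51 to 0.48). On the other side of 0 were *Fosb* at 0.27 (-0.31 to 0.85), *Npas4* at 0.27 (-0.26 to 0.80), *Egr2* at 0.19 (-0.81 to 1.19) and *Egr3* at 0.08 (-0.48 to 0.63). Differences of up to 1.8-fold for *Fosb* and 2.28-fold for *Egr2* lay within these intervals. Without control replicate 3 and cKO replicate 1, which went against their labels at the *Hoxa5* locus, again 0 of the 10 genes were called. The estimate of *Fos* was then -0.01, and that of *Fosb* 0.59. With single libraries left out, *Fos* ranged from -0.36 (without cKO replicate 2) to -0.08 (without cKO replicate 1). Without both libraries the estimate of *Egr1* stood at 0.21, that of *Arc* at 0.10, that of *Nr4a1* at 0.17, that of *Ier2* at 0.20, that of *Junb* at 0.04 and that of *Egr2* at -0.21, each on the other side of 0. *Npas4* moved farthest from 0, to 0.75 with an unadjusted p of 0.00284 and an adjusted p of 0.152 (edgeR), but stood at 0.06 without cKO replicate 2 and at 0.15 without control replicate 2.

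**Figure D2:**
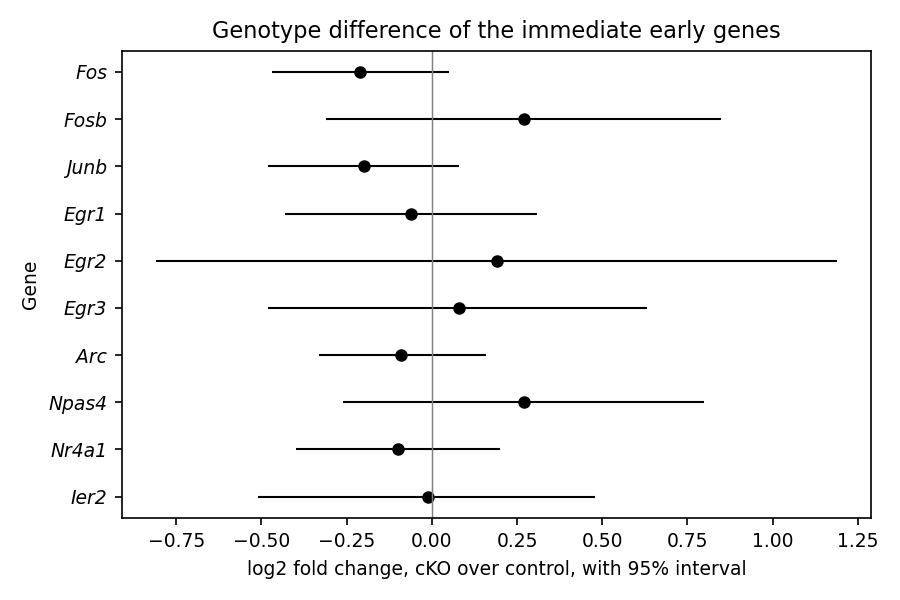
Log2 fold change of each gene, cKO over control, as a point with its 95% interval from the edgeR fit over 3 libraries per genotype. All 10 intervals include 0, and that of Egr2, from -0.81 to 1.19, is the widest.

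Levels were next compared between single libraries. As a common measure, the log2 CPM of each gene was taken relative to its mean over the 6 libraries and averaged over the 10 genes. This mean was 0.02, -0.17 and 0.17 in control replicates 1 to 3 and -0.28, 0.27 and -0.01 in cKO replicates 1 to 3. The genotype means were 0.01 ± 0.17 and -0.01 ± 0.28 (SD, n = 3), a difference of -0.017, while the range was 0.34 among the controls and 0.55 among the cKO libraries. The difference depended on which libraries entered: it was -0.15 without cKO replicate 2, -0.11 without control replicate 2, 0.065 without control replicate 3 and 0.12 without cKO replicate 1. Without both control replicate 3 and cKO replicate 1 it was 0.20, beside ranges of 0.19 among the remaining controls and 0.28 among the remaining cKO libraries. In control replicate 2 and in cKO replicate 1, 9 of the 10 genes lay below their own mean. In control replicate 3 and in cKO replicate 2, 9 of the 10 lay above it, all but *Egr2* in the first and all but *Junb* in the second. In control replicate 1 and cKO replicate 3 the genes divided, 6 above and 4 below. No share over all loci was computed for these counts, which are a description. Without *Egr2* the means were 0.04, -0.24 and 0.23 in control and -0.37, 0.24 and 0.09 in cKO.

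**Figure D3:**
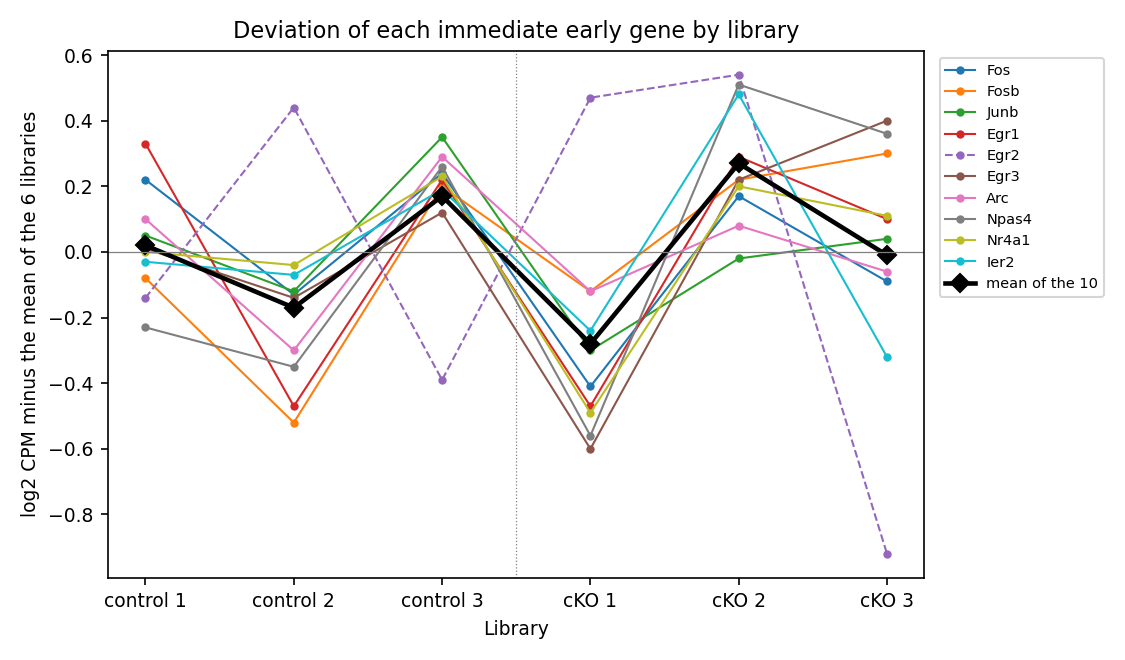
Log2 CPM of each gene minus its mean over the 6 libraries (vertical axis) by library (horizontal axis). Thin lines are genes, drawn only to guide the eye, the dashed line is Egr2, and the thick black line is the mean of the 10. Most lines dip at control replicate 2 and cKO replicate 1, where the mean is -0.17 and -0.28, while Egr2 is high in both.

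Control replicate 2 and cKO replicate 1 held the 2 lowest levels of 8 of the 10 genes, all but *Egr2* and *Ier2*. Over all tested loci the same held for 7.79%. The pair was noticed in these same values, so that the count is a description. On the FPKM scale it was 6 of 10, and with scaling by library size alone 8 of 10. Some of the 8 orders rested on near ties: *Fosb* had 20 fragments in cKO replicate 1 and 21 in control replicate 1. *Nr4a1* had 174 in control replicate 2 and 178 in control replicate 1. For *Egr1* the pair stood apart, at 16.9 and 16.8 CPM against 25.0 in the next library. The cKO replicate 1 library was the lowest of all for 6 genes and the highest for none, against 19.8% and 20.0% of tested loci. The highest level was in control replicate 3 for 4 genes, in cKO replicate 2 for 3, in cKO replicate 3 for 2 and in control replicate 1 for 1.

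Pairs of genes were compared over the 6 libraries by Pearson correlation of log2 CPM. Of the 45 pairs, 37 had a positive correlation, with a median of 0.61 (-0.63 to 0.91). The 36 pairs without *Egr2* were positive throughout, with a median of 0.68 (0.25 to 0.91), and of the 9 pairs with *Egr2* only that with *Ier2*, at 0.39, was. The highest values were those of *Egr3* with *Nr4a1* (0.91) and with *Npas4* (0.89). Within genotypes, from deviations from the genotype means, the 36 pairs had a median of 0.77 (0.31 to 0.99). All pairs share the same 6 libraries and their depth.

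*Fos* was compared with each of the other 9 genes in exact permutation tests (two-sided, over the 6 libraries). *Egr1* followed *Fos* with r = 0.88 (rho = 0.83), *Nr4a1* with 0.85 (0.83), *Junb* with 0.82 (0.94) and *Arc* with 0.76 (0.94). The exact permutation p of r was 0.0194 for *Egr1*, 0.025 for *Junb*, 0.0472 for *Nr4a1* and 0.0611 for *Arc*, and that of rho 0.0583, 0.0167, 0.0583 and 0.0167. After adjustment over the 9 relations none passed 0.05, with 0.113 the smallest for r and 0.075 for rho. *Ier2* stood at r = 0.69 (rho = 0.66, exact p = 0.117 and 0.175), *Egr3* at 0.66 (0.49, exact p = 0.169 and 0.356), *Npas4* at 0.61 (0.54, exact p = 0.175 and 0.297) and *Fosb* at 0.39 (0.43, exact p = 0.472 and 0.419). Their adjusted values were 0.21 to 0.531 for r and 0.315 to 0.472 for rho. *Egr2* stood at -0.25 (rho = -0.37, exact p = 0.631 and 0.497, the same after adjustment).

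When the 2 libraries farthest from the median of *Fos*, control replicate 3 and cKO replicate 1, were left out, r stayed at 0.82 for *Egr1*, 0.88 for *Arc* and 0.63 for *Ier2*. It was 0.51 for *Junb*, 0.32 for *Nr4a1*, 0.31 for *Fosb*, 0.16 for *Npas4*, 0.00 for *Egr3* and 0.27 for *Egr2*. For *Nr4a1*, *Npas4* and *Egr3* r fell more without cKO replicate 1 than without control replicate 3. Without cKO replicate 1 alone it was 0.52, 0.24 and -0.0029, and without control replicate 3 alone 0.81, 0.56 and 0.67. In the same order of libraries, r was 0.62 and 0.85 for *Junb*, but 0.40 and 0.29 for *Fosb*. Within genotypes r was 0.96 for *Egr1*, 0.87 for *Npas4*, 0.85 for *Nr4a1*, 0.80 for *Fosb*, 0.78 for *Arc*, 0.76 for *Junb* and *Egr3*, 0.73 for *Ier2* and -0.26 for *Egr2*.

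**Figure D4:**
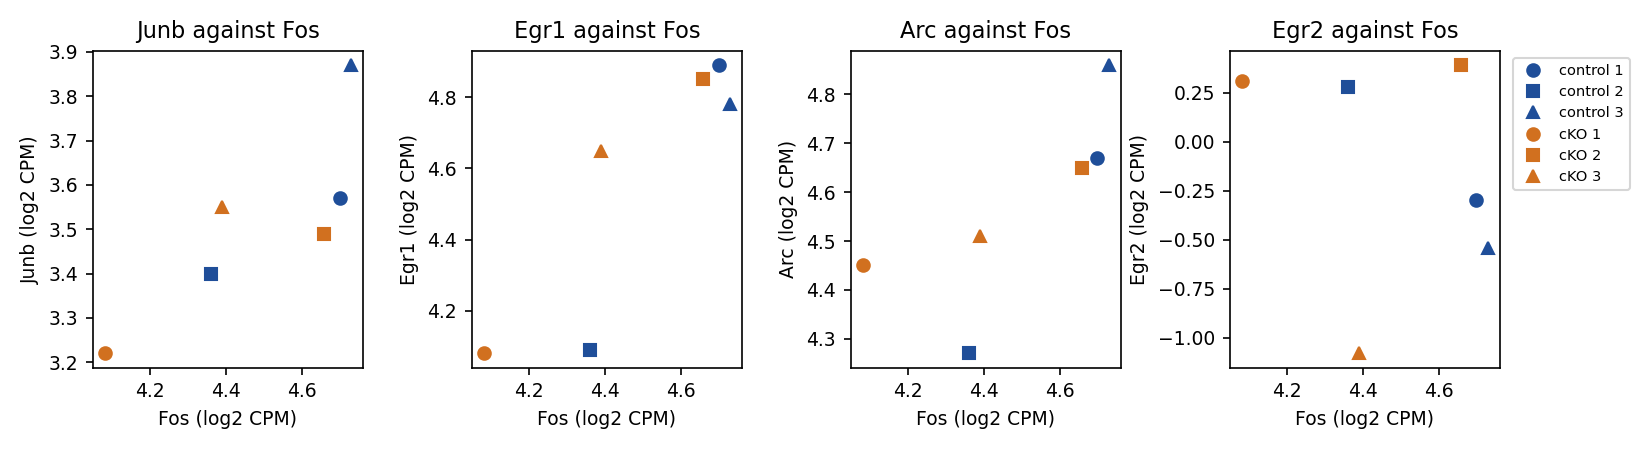
Log2 CPM of Junb, Egr1, Arc and Egr2 (vertical axes) against log2 CPM of Fos (horizontal axes), with 1 point per library. Control and cKO points are mixed along the same trend for the first 3 genes (r = 0.82, 0.88 and 0.76) and show none of that trend for Egr2 (r = -0.25).

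The promoters of 4 of these genes are shown: *Fos*, as the gene the others were compared with, *Junb* and *Nr4a1*, for their correlations with it over all 6 libraries, and *Egr2*, which did not follow the rest. The table of RefSeq promoters (GRCm38.p6) used here held 6 of the 10 genes, the others being *Fosb* and *Npas4*. The 250 bases before the start site were searched on both strands for exact matches. The motifs were the CArG box (CC, 6 letters of A or T, GG), which SRF binds, and the CRE (TGACGTCA), which CREB binds. Also searched were the CRE core TGACG, which any full CRE contains, and the EGR site (GCGTGGGCG or GCGGGGGCG). TATAAA was searched on the strand of the gene. Capitals mark the CArG box, the CRE core on either strand (TGACG or CGTCA) and TATAAA.
Fos (chr12:85473640-85473889, plus strand): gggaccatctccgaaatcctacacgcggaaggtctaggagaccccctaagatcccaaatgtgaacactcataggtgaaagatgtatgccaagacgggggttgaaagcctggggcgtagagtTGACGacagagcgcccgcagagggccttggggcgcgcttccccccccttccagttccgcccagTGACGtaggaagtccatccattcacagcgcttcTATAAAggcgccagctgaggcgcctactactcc
Junb (chr8:84978749-84978998, minus strand): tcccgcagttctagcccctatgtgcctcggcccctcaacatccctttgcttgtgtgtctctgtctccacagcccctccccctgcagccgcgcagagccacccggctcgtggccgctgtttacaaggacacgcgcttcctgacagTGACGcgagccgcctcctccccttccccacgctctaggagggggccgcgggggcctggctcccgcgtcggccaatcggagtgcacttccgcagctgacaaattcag
Nr4a1 (chr15:101266596-101266845, plus strand): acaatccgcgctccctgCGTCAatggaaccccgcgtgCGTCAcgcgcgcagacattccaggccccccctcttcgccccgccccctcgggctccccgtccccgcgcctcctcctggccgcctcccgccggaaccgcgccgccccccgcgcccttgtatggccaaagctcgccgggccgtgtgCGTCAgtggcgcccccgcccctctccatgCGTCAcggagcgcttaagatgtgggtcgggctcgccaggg
Egr2 (chr10:67537619-67537868, plus strand): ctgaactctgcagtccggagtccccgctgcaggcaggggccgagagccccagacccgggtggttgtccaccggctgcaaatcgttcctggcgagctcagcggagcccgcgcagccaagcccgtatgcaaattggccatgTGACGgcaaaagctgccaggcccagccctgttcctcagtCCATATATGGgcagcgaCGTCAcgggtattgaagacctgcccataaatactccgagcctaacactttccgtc

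The CRE core was present before a start site of each of the 6 genes, and in 17.8% of the 32851 windows of all genes. In *Fos* it began 129 and 66 bases before the start site, in *Junb* 106, in *Nr4a1* 233, 213, 69 and 40, and in *Egr2* 111 and 55. In *Fosb* it began 60 bases before the start site, and in *Npas4* 179 and 169. The full CRE was in none of the 6 (1.55% of windows), and the CArG box only in *Egr2*, 72 bases before the start site (1.47% of windows). *Fos* had TATAAA 33 bases before the start site (7.59% of windows), and *Nr4a1* and *Fosb* each had an EGR site, 60 and 50 bases before it (3.06% of windows). The RefSeq start site of *Nr4a1* lies within its deposited locus, which begins farther upstream. *Egr2* had 5 start sites in the table, of which the one at the start of its locus is shown, and 1 of them had none of these motifs. A match shows only that the letters are there, and *Egr2*, which did not follow *Fos*, shared the CRE core with it. Sites beyond these 250 bases or with a mismatch were not searched, so that no match does not mean that a gene lacks a site.

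Early genes outside the 10 were read from lists of the same kind. Of 20 other rapidly induced transcription factors 19 were tested and 0 were called in either direction (edgeR, or DESeq2 and limma). At an unadjusted p under 0.05 edgeR had 1 lower and 2 higher (all loci 4.03% and 2.91%), while DESeq2 had 1 in all and limma 2. The median log2 fold change was -0.01. *Nr4a3*, the third member of the NR4A family beside *Nr4a1*, was at 4.57, 3.49 and 3.92 CPM in control and 2.08, 1.91 and 2.68 in cKO. The genotypes did not overlap, as for 12.2% of tested loci. Its log2 fold change was -0.84 ± 0.21 (SE) with an adjusted p of 0.116 by edgeR and 0.475 by DESeq2. This differs in pattern from *Nr4a1*, which overlapped between the genotypes, but the difference between the 2 genes was not tested. *Maff* and *Mafk*, small MAF proteins that lack an activation domain, stood at 0.63 ± 0.25 and 0.29 ± 0.12 (SE), with adjusted p of 0.603 and 0.638. *Jun*, the partner of *Fos* in AP-1, stood at 43.4 ± 3.86 CPM in control and 43.4 ± 1.70 in cKO (SD, n = 3). *Jun* is named here after its values were seen.

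Of 29 other rapid effectors and feedback genes 28 were tested, and 1 was lower in cKO and 0 higher, beside 0.503% and 0.0275% of all loci, with a median of 0.00. The gene was *Dusp5*, a nuclear phosphatase that inactivates ERK. It was at 13.6, 12.7 and 8.89 CPM in control and 3.91, 6.81 and 3.93 in cKO, with a log2 fold change of -1.25 ± 0.20 (SE, adjusted p = 0.00455 by edgeR). *Btg2*, an antiproliferative gene, and *Ctgf*, a secreted matrix protein, followed by p-value, at -0.30 ± 0.15 and 0.18 ± 0.13, with adjusted p of 0.76 and 0.871. Markers of granule neurons and Purkinje cells fell with *Dusp5*, with the ranges given above, and their part in its fall was not tested.

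Genes of the late response, which follows the early factors, numbered 10, all tested. Of these 1 was lower and 0 were higher (all loci 0.503% and 0.0275%), with a median of 0.06. *Nptx1*, a pentraxin that gathers AMPA receptors at excitatory synapses, was at 140.0, 124.0 and 125.0 CPM in control and 97.4, 110.0 and 112.0 in cKO, with a log2 fold change of -0.29 ± 0.06 (SE, edgeR adjusted p = 0.0483). This call did not survive the removal of any 1 of the 6 libraries, with edgeR adjusted p-values of 0.0505 to 0.45. *Scg2* and *Vgf*, which encode granins of dense-core vesicles, stood at 0.08 ± 0.05 and 0.09 ± 0.06, with adjusted p of 0.852 and 0.86. *Bdnf*, a target of *Npas4*, stood at 13.2 ± 1.24 CPM in control and 12.3 ± 0.837 in cKO (SD, n = 3), and is named after its values were seen.

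Kinases and factors that act upstream of the early genes, such as SRF, CREB and their cofactors, numbered 25, all tested. Of these edgeR called 1 lower and 0 higher (all loci 0.503% and 0.0275%). A log2 fold change below 0 was found for 21 (all loci 48.6%), with a median of -0.05. In edgeR 7 were lower and 0 were higher with p under 0.05 before adjustment (all loci 4.03% and 2.91%), but 4 in all in DESeq2 and 5 in limma. *Camk4*, a calcium-dependent kinase that phosphorylates CREB and is abundant in cerebellar granule neurons, was at 233, 191 and 184 CPM in control and 124, 143 and 151 in cKO (log2 fold change -0.54 ± 0.08, SE, edgeR adjusted p = 0.00309). *Rps6ka1* and *Rps6ka3*, RSK kinases downstream of ERK, stood at -0.37 ± 0.09 and -0.17 ± 0.05, with adjusted p of 0.0932 and 0.274. The part of the fall in cerebellar markers in these values was not tested.

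The order of the 10 among libraries was found in some of these related genes. Control replicate 2 and cKO replicate 1 held the 2 lowest levels of 6 of 19 other rapid factors, 1 of 28 rapid effectors, 1 of 10 late genes and 4 of 25 upstream genes, to be set beside the 7.79% of all loci. The mean level of the other rapid factors relative to the 6 libraries was 0.06, 0.02 and -0.01 in control and -0.14, 0.03 and 0.05 in cKO, lowest in cKO replicate 1 as for the 10 genes. That of the late genes stayed between -0.06 and 0.05.

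Lists for other cell types and states were read beside the 10 genes in each library. Glucocorticoid-induced genes such as *Fkbp5*, *Sgk1* and *Tsc22d3* were at -0.16, 0.07 and -0.47 in control and 0.24, 0.07 and 0.25 in cKO. Their mean was lowest in control replicate 3, where the early genes were on average above their mean. *Tsc22d3* differed, with 172, 155 and 167 CPM in control and its lowest level in control replicate 2. By edgeR 0 of 9 were called, while 7 were higher in cKO at an unadjusted p under 0.05 (all loci 2.91%). These became 6 in DESeq2, 4 in limma and 3 without control replicate 3 and cKO replicate 1, and none of these fits called any of the 9. Markers of brainstem neurons, such as *Slc6a5*, *Slc17a6* and *Chat*, were at -0.10, 0.05 and -0.11 in control and 0.14, -0.07 and 0.10 in cKO, so that their mean was highest in the library lowest in early genes. This did not hold for each marker: *Slc17a6* was highest in cKO replicate 2 and *Slc6a5* in cKO replicate 3. Heat shock genes ranged from -0.16 to 0.15, hypoxia-induced genes from -0.07 to 0.05 and clock genes from -0.09 to 0.07. Choroid plexus markers ranged from -0.27 to 0.24, oligodendrocyte markers from -0.12 to 0.15 and astrocyte markers from -0.06 to 0.06. The part of these lists, of the low count of Y-linked fragments in cKO replicate 1 and of depth in the levels of the early genes was not tested.

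**Figure D5:**
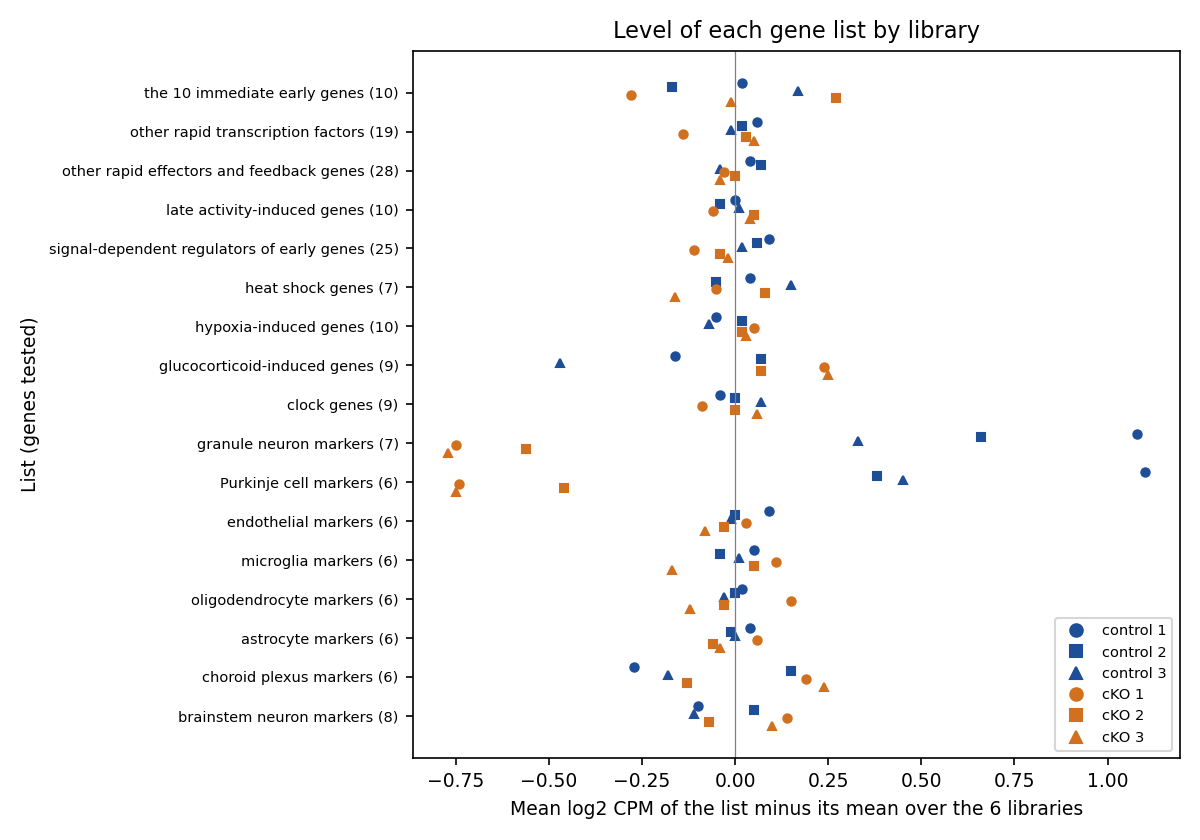
Mean log2 CPM of each gene list minus its mean over the 6 libraries (horizontal axis), by list (vertical axis, with the number of genes tested). Points are libraries. The early genes spread from -0.28 to 0.27 with control and cKO mixed, while granule neuron markers lie at 0.33 to 1.08 in control and -0.77 to -0.56 in cKO.

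The loci whose pattern over the 6 libraries was most like the mean standardized level of the 10 genes were sought among 14395 other loci with a single gene name and a mean of at least 1 CPM. The 10 most alike were *Usp15* (r = 0.989), *Cachd1*, *Ptpru*, *Lrrc3b*, *Gm15706*, *Mid1*, *Rbfox2*, *Eya3*, *Lin52* and *2210016L21Rik* (r = 0.978). In all, 33 loci lay above 0.95 and 58 below -0.95. These are the extremes of 14395 correlations over only 6 libraries. How many unrelated loci would reach such values was not tested. The 10 loci ranged over 0.12 to 0.54 on the log2 scale from their lowest to their highest library, against 0.59 for *Arc* to 1.46 for *Egr2* among the early genes. The early genes themselves correlated with their mean at 0.70 (*Fosb*) to 0.91 (*Egr1*), and at -0.33 for *Egr2*. For an early gene that mean includes the gene itself, so that its r is not on the same footing as that of an outside locus.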

How the data were processed

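Brainstem RNA of mice was sequenced in 6 libraries, grouped by the genotype that the labels give. The authors called bases with CASAVA 1.6, aligned reads with TopHat2 2.0.9 to mm10, merged transcripts with Cufflinks 2.2.0 and quantified loci with Cuffdiff. Their deposited table holds fragments per locus as raw counts (0 values were not whole) and FPKM that the authors' Cuffdiff run scaled between libraries. How strand was treated in counting was not given in the sources used here. The replicate numbers were names within a genotype: same-numbered libraries of both genotypes had deviations that correlated at -0.0821 to 0.0504.

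Counts were scaled by TMM, filtered with filterByExpr and tested by the quasi-likelihood test of edgeR 4.0.16 in R 4.3.3, with genotype as the only term and Benjamini-Hochberg adjustment over 21854 loci (threshold 0.05). The common coefficient of biological variation was 0.0552. Standard errors came from the same fit and its trended dispersion, and log2 CPM used a prior count of 2. Alternatives were DESeq2 1.42.0, limma 3.58.1 with a trend on log2(FPKM + 1) and log2(FPKM + 0.1) with a minimum FPKM of 1 in 3 libraries or none, library size alone, upper-quartile factors, no filter on counts or at least 50 fragments in 3 libraries, each library left out, the replicate number as a block, and control replicate 3 and cKO replicate 1 left out. For the mean level of the early genes, each gene was also left out in turn. The pipeline was tested on simulated data in which all genes had the common coefficient of 0.0552. The 10 early genes had coefficients of their own from 0.0867 (*Arc*) to 0.216 (*Egr2*), so that the simulation does not show the power for them. Correlations and permutations used Python 3.11.15 and scipy 1.17.1.

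The 10 genes and the other 17 lists were chosen with earlier results of these data known, and the lists were written from general knowledge. Of 184 genes in the lists, 4 lay on a locus shared with other names. Named were the 10 genes, every called gene and in each list of related genes the 3 of smallest p, the 10 loci most like the early genes, and *Hoxa5*. *Jun* and *Bdnf*, examples from other lists, and *Inhba* were named after their values were seen, and the called cerebellar markers are given as counts. Columns of Cuffdiff-scaled fragments were not used.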

Additional observations from a re-analysis of the deposited data

How the results depend on the processing

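None of the early genes was called under the alternatives in which it was tested, 16 for most, 15 for *Egr3* and *Ier2* and 13 for *Fosb* and *Egr2*, which the filters on FPKM or fragments removed from the others. None had libraries that parted by genotype on the FPKM scale or with library size alone. The alternatives for the mean level of the genes were log2(FPKM + 1), library size alone, and each gene left out in turn. Leaving out a gene changes the set of genes and not the processing. Counted over libraries and alternatives, all 72 values of this mean level moved by less than the spread between replicates. The genotype difference of that mean spanned -0.15 to 0.20 with libraries left out, alternatives chosen after seeing the data. Without control replicate 3 and cKO replicate 1, those of *Junb* (0.04), *Egr1* (0.21), *Egr2* (-0.21), *Arc* (0.10), *Nr4a1* (0.17) and *Ier2* (0.20) turned, *Egr3* stood at 0.40, and 161 loci were called. With libraries left out, values spanned -0.36 to -0.01 for *Fos*, 0.09 to 0.59 for *Fosb*, 0.06 to 0.75 for *Npas4*, -0.30 to 0.04 for *Junb*, -0.27 to 0.21 for *Egr1*, -0.21 to 0.58 for *Egr2*, -0.13 to 0.40 for *Egr3*, -0.23 to 0.10 for *Arc*, -0.22 to 0.17 for *Nr4a1* and -0.33 to 0.20 for *Ier2*. With 1 library left out, turned values for *Egr1* were 0.08, 0.02 and 0.12 (without control replicate 1, control replicate 3 or cKO replicate 1). For *Egr2* they were -0.02, -0.01 and -0.10 (without control replicate 3, cKO replicate 1 or cKO replicate 2), for *Ier2* 0.08, 0.11 and 0.14 (without control replicate 3, cKO replicate 1 or cKO replicate 3), for *Arc* 0.05 (without control replicate 3) and for *Nr4a1* 0.08 (without cKO replicate 1). *Egr3* turned to -0.0034 and -0.13 without cKO replicate 2 or 3, and to -0.01, -0.04 and -0.01 in limma with a pseudocount of 1, of 0.1 and without the filter. The correlation of *Fos* with *Egr2* was 0.09 and that with *Egr3* -0.0029 without cKO replicate 1, and -0.62 and 0.94 without cKO replicate 3. No alternative gave an adjusted p under 0.152 for an early gene, a value of *Npas4*. Where 1 library was left out, the lowest was 0.376, also for *Npas4* (0.53 without cKO replicate 1, unadjusted p = 0.0164). Unadjusted p-values under 0.05 were also found for *Fos* (0.0235), *Arc* (0.0313) and *Junb* (0.0451) without control replicate 2, all lower in cKO, and for *Fos* (0.011) without cKO replicate 2. The cause was not tested.

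Over all loci the 116 calls became 116 with DESeq2, 142 with library size alone, 114 with upper-quartile factors, 221 without a filter and 76 with at least 50 fragments in 3 libraries. limma on FPKM called 0 with a pseudocount of 1, 1 with 0.1 and 0 without the filter. With 1 library left out there were 44 (without control replicate 1) to 126 calls, and 65 without cKO replicate 3. In limma the call among rapid effectors (*Dusp5*), that among late genes (*Nptx1*) and that among upstream genes (*Camk4*) became 0 with each pseudocount and without the filter. The late gene call also became 0 with upper-quartile factors and with at least 50 fragments, and was 0 to 0 with 1 library left out. Without control replicate 3 and cKO replicate 1 the single late gene called was another, *Inhba* (log2 fold change 0.42, adjusted p = 0.012), on a locus shared with other gene names. Without a filter 2 upstream genes were called, *Rps6ka1* being added. With 1 library out, adjusted p ran from 9.01e-04 to 0.0353 for *Dusp5* and from 0.00109 to 0.0132 for *Camk4*.

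With the replicate number as a block, edgeR called 130 loci and 0 of the 10 genes, and the late gene call became 0. The sources used here tie these numbers to no pool, and same-numbered libraries did not deviate together (0.0316, -0.0821 and 0.0504). Depth limits *Egr2*, *Fosb* and *Egr3* most, with 4 to 40 fragments per library.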
